A study of Homo sapiens with 7 samples.

Results

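Genomic windows around 7 genes for prostate surface and secreted antigens were examined for binding of HOXB13 acetylated at lysine 13. The genes are FOLH1, STEAP1, STEAP2, TRPM8, ACPP, PSCA and CEACAM5, and STEAP1 and STEAP2 share a window. A member is any peak of any of the 6 deposited lists that shares at least 1 bp with 1 of the 6 windows, which cover 900 kb of hg19 in all. This rule gave 236 of the 148463 peaks in the lists. The rule uses position only and no peak height. FOLH1 has the window chr11:49120000-49280000, STEAP1 and STEAP2 chr7:89740000-89920000, TRPM8 chr2:234780000-234980000, and ACPP chr3:131990000-132140000. PSCA has chr8:143710000-143810000 and CEACAM5 chr19:42170000-42280000.

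The study used chromatin immunoprecipitation and sequencing (ChIP-seq) in C4-2B, an established prostate cancer cell line derived from LNCaP that grows under castration. All 7 libraries came from this line in medium with charcoal-stripped serum, from which steroid hormones are depleted, and no agent was added. They comprise 3 precipitations with the HOXB13-K13ac antibody, 2 with control IgG and 2 input libraries of unprecipitated chromatin. There is 1 condition and no comparison of conditions, so the values are described without a test, and the labels do not say whether the replicates came from separate cultures. C4-2B is 1 cell line, and peak lists hold no expression values, so its identity was not checked against marker genes. Each list was tied to a library by the spelling of its name. Replicates 1 and 3 differ there by a punctuation mark, the control used for the replicate 1 list is not named, and 1 list against input matches no library and is given apart. Read depth is unknown for every library. The replicate 1 list had 69 of its 41303 peaks in the windows, replicate 2 against input 77 of 45216 and replicate 3 against input 13 of 18232. Against IgG, replicate 2 had 18 of 7506 peaks and replicate 3 had 0 of 1. The list without a library had 59 of 36205.

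HOXB13, a homeobox protein, helps specify prostate epithelium. It binds AT-rich sequence and is known to occupy many of the same enhancers as the androgen receptor and the forkhead factor FOXA1. The antigens differ in kind. FOLH1 encodes prostate-specific membrane antigen, a surface peptidase that releases glutamate from folates and is the target of prostate radioligands. STEAP2 encodes a membrane metalloreductase of iron and copper, and STEAP1 a related membrane protein that is a target of antibodies and T-cell engagers. TRPM8 is a cation channel opened by cold and menthol. ACPP, now named ACP3, encodes prostatic acid phosphatase, a secreted enzyme that was an early serum marker of prostate cancer. PSCA and CEACAM5 encode antigens held on the membrane by a lipid anchor. CEACAM5 is carcinoembryonic antigen, best known from the gut. Several of these genes are regulated by androgen in prostate cells.

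The 250 bases before the annotated transcript starts are shown here, as RefSeq gives them on GRCh38.p14, because they are the member sequence available for comparison with the HOXB13 motif. The peaks themselves are on hg19 and no sequence under them was read. In all, 5 of the 7 members matched, with 11 start sites: STEAP1 with 1, STEAP2 with 2, TRPM8 with 6, ACPP with 1 and CEACAM5 with 1. Both strands were searched for the HOXB13-type motif CAATAAA, its variant CCATAAA and the CpG-holding form CTCGTAAA. The short androgen receptor motif AGAACA was searched too, and so were the forkhead motif TGTTTAC and its variant TATTTAC. Capitals mark the matches, and no match overlapped another. All are from the plus strand, 5′ to 3′, with the last base next to the start. STEAP2 is shown at both starts, chr7:90211490-90211739 and chr7:90213570-90213819, because they differ most in composition. ACPP is at chr3:132317157-132317406 and CEACAM5 at chr19:41708376-41708625.
STEAP2, the first start: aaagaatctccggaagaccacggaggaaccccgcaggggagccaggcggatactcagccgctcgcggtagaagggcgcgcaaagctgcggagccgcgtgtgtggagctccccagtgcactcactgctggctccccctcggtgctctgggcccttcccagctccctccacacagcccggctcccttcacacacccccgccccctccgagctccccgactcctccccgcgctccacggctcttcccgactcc
STEAP2, the second start: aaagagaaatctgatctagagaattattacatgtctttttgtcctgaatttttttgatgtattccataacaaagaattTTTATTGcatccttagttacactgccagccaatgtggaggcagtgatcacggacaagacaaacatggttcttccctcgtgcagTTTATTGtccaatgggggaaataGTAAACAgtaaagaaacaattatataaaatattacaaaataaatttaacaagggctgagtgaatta
ACPP: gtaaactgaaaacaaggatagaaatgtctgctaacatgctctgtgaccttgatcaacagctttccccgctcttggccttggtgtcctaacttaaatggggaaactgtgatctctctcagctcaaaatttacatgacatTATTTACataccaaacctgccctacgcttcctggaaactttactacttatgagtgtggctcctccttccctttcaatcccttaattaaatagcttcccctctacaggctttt
CEACAM5: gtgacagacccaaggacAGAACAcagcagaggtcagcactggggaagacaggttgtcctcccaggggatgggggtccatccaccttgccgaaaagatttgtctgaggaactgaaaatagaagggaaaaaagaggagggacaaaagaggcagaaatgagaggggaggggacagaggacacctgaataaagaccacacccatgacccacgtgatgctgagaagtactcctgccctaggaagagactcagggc

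The first STEAP2 start lies in GC-rich sequence, with 69.6% G or C and 21 CpG dinucleotides, and held no match. STEAP1 was alike, at chr7:90154219-90154468, with 64.4% G or C, 21 CpG and no match. The second STEAP2 start had 32.8% G or C and 2 CpG. It held CAATAAA in 2 places, read on the opposite strand, beginning 172 and 89 bases before the start, and 1 TGTTTAC, also on the opposite strand, 66 bases before it. ACPP had 1 TATTTAC, 112 bases before the start, and CEACAM5 had 1 AGAACA, 233 bases before it. Among the 6 TRPM8 starts, 1 held CAATAAA, 1 held CCATAAA with TATTTAC, and 1 held AGAACA. A HOXB13-type motif was thus present before 3 of the 11 starts. These had 32.8%, 44.8% and 40.4% G or C, below the lower quartile of all promoter entries, 46.4%. The starts without one ranged from 40.0% to 69.6%. Among these, ACPP at 42.0% and TRPM8 starts at 40.0% and 44.4% were below that quartile as well. A part of base composition in the matches was not tested. Of all 35116 promoter entries of the same length, 5.91% held 1 or more of these 3 motifs. Separately, CAATAAA was in 3.67%, CCATAAA in 2.30%, CTCGTAAA in 0.117%, AGAACA in 12.4%, TGTTTAC in 2.98% and TATTTAC in 2.39%. The median over all entries was 58.0% G or C and 11 CpG. The TRPM8 starts belong to 1 gene, so the 11 entries are not independent.

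The windows held more peaks per length than the genome at large in the list of replicate 1 and in those of replicates 2 and 3 against input. Replicate 1 had 7.67 peaks per 100 kb in the windows and 1.38 over the genome, replicate 2 had 8.56 and 1.51, and replicate 3 had 1.44 and 0.608. The heights were not higher to the same extent. Fold enrichment is the authors' ratio of signal to local control background at a peak's summit. Its median was 4.85 for the members in replicate 1 and 4.67 for the whole list, 6.56 and 6.50 in replicate 2, and 3.92 and 4.40 in replicate 3. The member peaks were therefore numerous, while their middle values lay near those of the lists. They covered 6.19% of the windows in replicate 1, 9.12% in replicate 2 and 0.363% in replicate 3, against 0.981%, 1.27% and 0.158% of the genome.

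**Figure D1:**
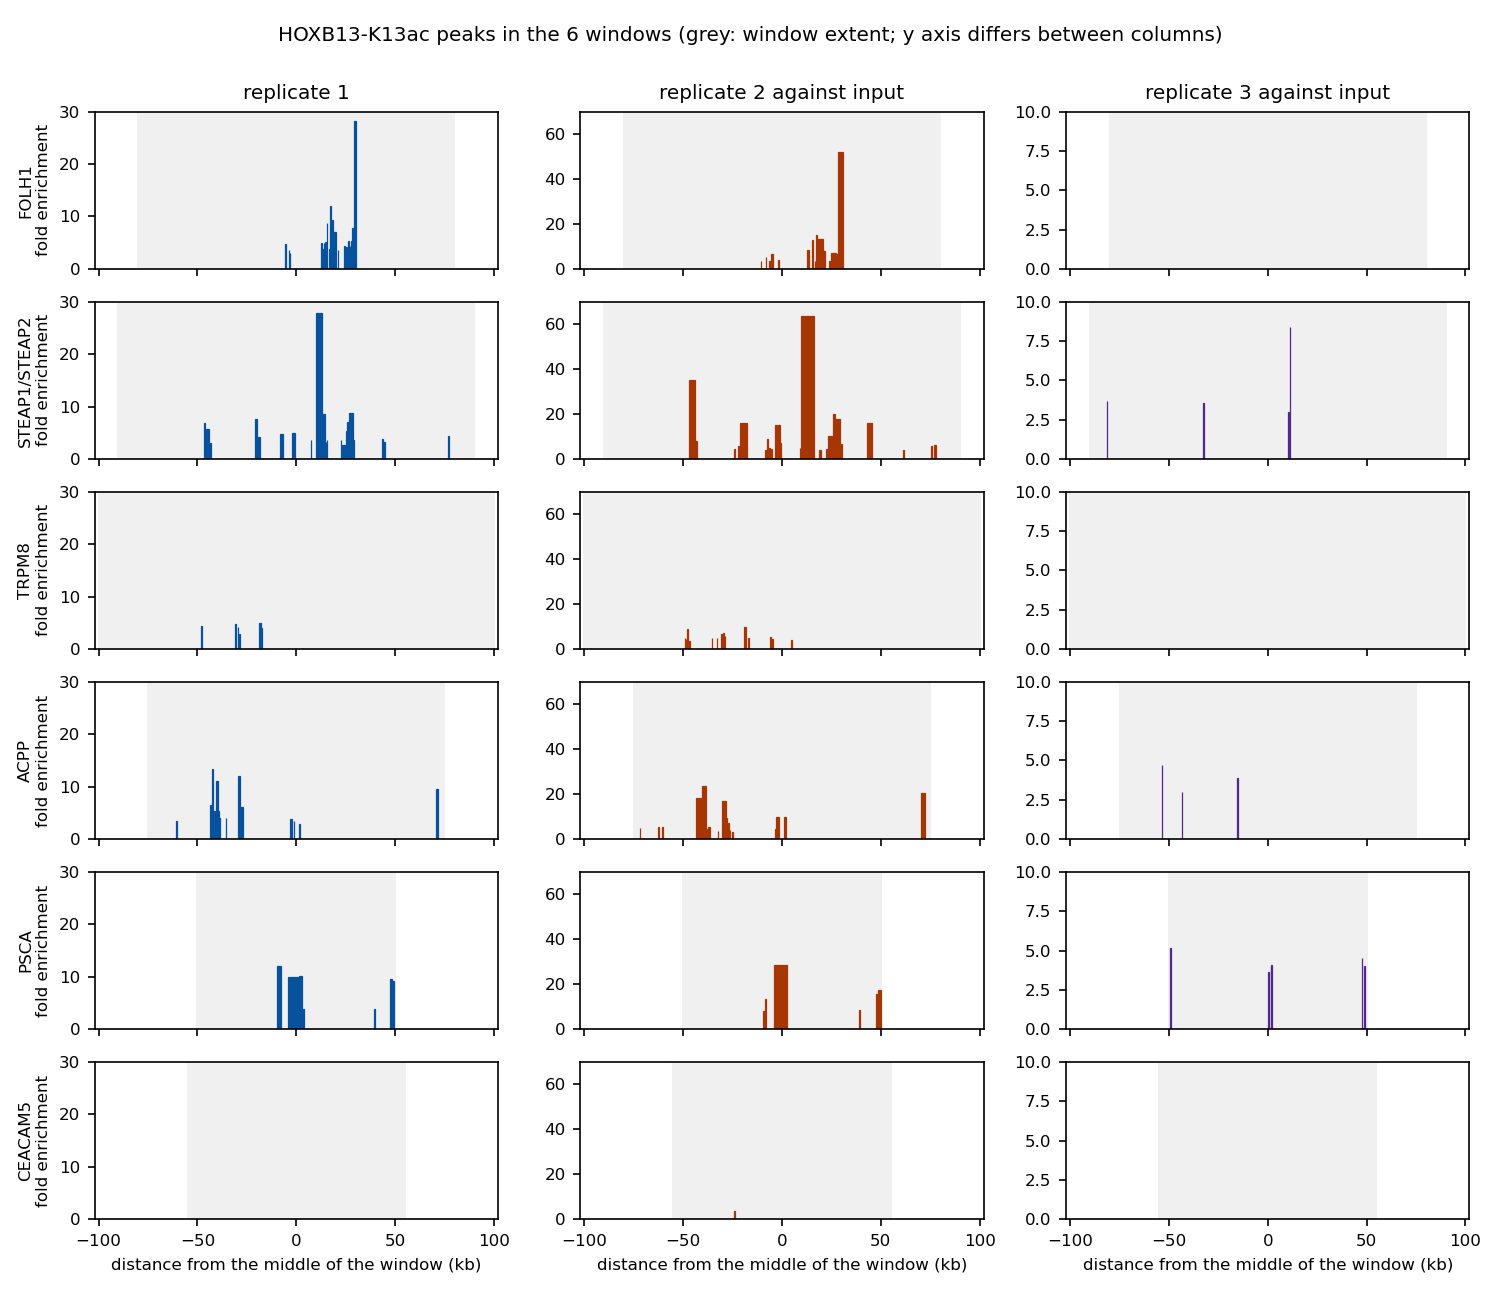
Peaks of the replicate lists along the 6 windows, leaving out the lists against IgG and the list without a library. The horizontal axis is distance from the middle of the window in kb, and the vertical axis is the authors' fold enrichment. FOLH1 and the STEAP window have the highest peaks, and CEACAM5 has a single peak, in replicate 2.

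FOLH1, the gene of prostate-specific membrane antigen, had 20 peaks in replicate 1, 16 in replicate 2 against input and 0 in replicate 3. After overlapping peaks of the 3 replicate lists were merged, 19 regions remained, with 11 replicated sites among them, that is, regions with a peak in at least 2 libraries. Its strongest site, chr11:49228392-49231002, had a fold enrichment of 28.3 in replicate 1 and 51.9 in replicate 2. These are rank 13 of the 26928 replicated sites with a replicate 1 peak and rank 95 of the 26878 with a replicate 2 peak. The same site was called against IgG in replicate 2, at 8.24-fold with a −log10 q of 9.30, and reached 29.1 in the list without a library. Replicate 3 had no peak there. The summits of replicates 1 and 2 lay at 49229744 and 49229842.

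The other FOLH1 sites were much lower. The site at chr11:49217199-49217741 had 12.1-fold in replicate 1 and 15.1-fold in replicate 2, and had an IgG-list peak of 2.52-fold with a −log10 q of 0. Next came chr11:49217978-49220508 with 9.32 and 13.4, chr11:49215163-49215784 with 8.77 and 12.8, and chr11:49212607-49213655 with 4.85 and 8.52. In each of these, replicate 2 was above replicate 1, as in 9 of the 11 sites. Most of the sites formed a dense group: 10 of the 11, from 49212607 to 49231002, lay within 10 kb of a neighbour and spanned 18.4 kb. The remaining site, chr11:49194423-49195687, lay 16.9 kb before the group. Outside the window, the nearest replicated sites were 988 kb before its start and 6360 kb after its end, the latter across the centromere. FOLH1 has a near-identical copy, FOLH1B, on the same chromosome. The sources used here do not say how reads that match several places were treated, so the FOLH1 values are uncertain to that extent.

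STEAP1 and STEAP2, neighbours on the chromosome, had the most peaks: 22 in replicate 1, 23 in replicate 2 against input, 4 in replicate 3 and 10 in replicate 2 against IgG. The peaks merged into 25 regions, 12 of them replicated. The strongest, chr7:89839529-89846067, is 6539 bp wide, and the value given for a region is that of its highest peak. It had 27.9-fold in replicate 1, 63.8-fold in replicate 2 and 8.41-fold in replicate 3, which is rank 19, 27 and 243 among the replicated sites with a peak in that library. The 63.8 is the highest value of any member. Its highest replicate 3 peak had a −log10 q of 8.45 and was the only 1 of the 13 replicate 3 member peaks to reach 5. Over the whole replicate 3 list, 1145 of 18232 peaks did so (6.28%), so 1 of 13 is near that share. Against IgG the region held 4 peaks, with up to 6.06-fold and a −log10 q of up to 3.89. In the list without a library it reached 51.2-fold.

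The site chr7:89782905-89785957 stood apart by its difference between libraries. It had 6.95-fold in replicate 1 and 35.3-fold in replicate 2, a ratio of 5.07 that was the highest of all member sites, and no peak against IgG. These values come from summits 467 bp apart, at 89783478 and 89783945. Another replicate 1 peak of the site, with its summit at 89783892, had 5.13-fold. The list without a library had 27.5-fold at this site. The sites chr7:89855833-89856790 and chr7:89856925-89859516, separated by a short gap, had 7.09 and 19.97 and then 8.68 and 17.8 in replicates 1 and 2. Both were called against IgG, at 3.57-fold and 3.14-fold, each with a −log10 q of 1.01. A further site, chr7:89808641-89812155, had 7.58 and 16.2, with 2.44 against IgG at a −log10 q of 0. The STEAP sites were wide, with a median of 2338.5 bp against 1005 bp for all replicated sites of the genome, and covered 16.1% of the window. Of the 12, 8 formed a group of 50.9 kb, from 89808641 to 89859516. STEAP1 also has a related gene, STEAP1B, on this chromosome.

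TRPM8, the cold-sensing channel, had 6 peaks in replicate 1, 14 in replicate 2 against input, and 0 in replicate 3 and against IgG. Its 15 merged regions included 5 replicated sites. The highest, chr2:234860916-234862012, had 5.03-fold in replicate 1 and 9.79-fold in replicate 2. The others were chr2:234831990-234832405 with 4.37 and 8.82, chr2:234850231-234850833 with 4.18 and 7.17, chr2:234849064-234849786 with 4.73 and 6.56, and chr2:234850993-234851353 with 2.91 and 5.72. All 5 were higher in replicate 2, and even the highest replicate 1 value lay below the genome's median for replicated sites, 5.83. In replicate 2 the highest, 9.79, was above the genome's median of 9.37 and the other 4 were below it. Regions with a peak in replicate 2 alone were more numerous, at 9, with fold enrichments from 3.61 to 5.21, and 2 of these 9 also had a peak in the list without a library.

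ACPP, the secreted phosphatase, had 14 peaks in replicate 1, 17 in replicate 2 against input, 3 in replicate 3 and 3 in replicate 2 against IgG. Of its 20 merged regions, 8 were replicated. The site chr3:132021245-132024099 was present in all 3 libraries, at 13.3-fold, 18.3-fold and 3.00-fold, and against IgG at 3.68-fold with a −log10 q of 1.01. Its replicate 3 peak was weak, with a −log10 q of 0.889, and its summit lay 1188 bp from that of replicate 1. The adjacent site chr3:132024495-132026487 had 11.1 and 23.7 in replicates 1 and 2, the highest replicate 2 value of this window, with no peak against IgG. At chr3:132034545-132036607 the values were 12.0 and 17.0, with 2.95 against IgG at a −log10 q of 1.01. These 3 sites and 1 more formed a group of 16.8 kb. A separate site near the window's end, chr3:132135491-132137178, had 9.58 and 20.3, and against IgG 4.67-fold with a −log10 q of 2.49. It lies 68.6 kb from the nearest other site of the window, the longest gap between sites in any window. The site chr3:132062079-132063536 had 3.74 and 9.68.

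PSCA, the lipid-anchored prostate stem cell antigen, was the window with the most replicate 3 peaks. There were 7 peaks in replicate 1, 6 in replicate 2 against input, 6 in replicate 3 and 3 in replicate 2 against IgG. The 7 merged regions included 5 replicated sites, and 3 of these were present in all 3 libraries. Their replicate 3 calls were low, with a highest −log10 q of 1.80, 1.83 and 2.38 in the order given below. The median of the whole replicate 3 list was 2.12, and 0 of the 6 replicate 3 peaks in this window reached 5. The widest, chr8:143756052-143762860 with 6809 bp, had 10.2-fold, 28.7-fold and 4.06-fold in replicates 1 to 3 and 4.61-fold against IgG with a −log10 q of 2.49. The highest replicate 1 and replicate 2 peaks within it had summits at 143761592 and 143758529, so they are separate summits in a broad region. The sites chr8:143808644-143809855 and chr8:143807291-143808422 had 9.25, 17.5 and 4.00, and 9.48, 15.5 and 4.50, and the latter was called against IgG at 3.18-fold with a −log10 q of 0.686. They lie at the window's edge, in a group of 4 sites that runs on to 143821735, beyond it. The remaining sites were chr8:143750145-143752111 with 12.1 and 13.4, with an IgG-list peak of 2.38-fold at a −log10 q of 0, and chr8:143799126-143799644 with 3.81 and 8.56.

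CEACAM5 was the exception among the 6 windows. A single peak was found, in replicate 2 against input, at chr19:42200912-42201167, with 3.47-fold and a −log10 q of 1.94. Replicates 1 and 3, the IgG lists and the list without a library had 0 peaks in this window. The 50 kb on either side held 0 peaks in all 3 replicate lists. The nearest replicated sites were 224 kb before and 83.8 kb after the window, which left 418 kb without one. Chromosome 19 as a whole had 2.53 replicated sites per 100 kb, more than any other chromosome with a window (0.741 to 1.13).

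How well the libraries repeated each other in the windows was read against the whole lists. Of the 69 replicate 1 peaks, 59 shared sequence with a replicate 2 peak (85.5%, 95% exact binomial interval 74.96 to 92.8), against 76.9% of the whole replicate 1 list. Of the 77 replicate 2 peaks, 46 shared sequence with replicate 1 (59.7%, 47.9 to 70.8), against 62.9%. Both member intervals include the share of the whole list, so no difference was detectable. Of the 13 replicate 3 peaks, 8 lay in peaks of replicate 1 or 2 (61.5%, 31.6 to 86.1), against 30.8%. Of those 8, 5 were at PSCA, 2 at the STEAP window and 1 at ACPP. Intervals reflect counting error alone, since adjacent peaks depend on each other.

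The 87 merged regions comprised 41 replicated sites and 46 regions of a single library. The replicated share was 47.1%, against 41.2% of all merged regions of the genome. All but 5 of the 41 were sites of replicates 1 and 2 only, and the 5 with all 3 libraries (12.2%, 4.08 to 26.2) compare with 17.0% over the genome. Among the 46 regions of a single library, 31 had replicate 2 (67.4%, against 43.1% over the genome), 10 replicate 1 (21.7%, against 24.2%) and 5 replicate 3 (10.9%, against 32.6%). Of the 31, 10 also had a peak in the list without a library (32.3%), near the 29.5% over the genome. Replicate 2 alone accounted for 9 regions each in the STEAP and TRPM8 windows and 8 in ACPP, but 0 in PSCA. The list without a library overlapped 35 of the 41 replicated sites (85.4%, against 86.9% over the genome).

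**Figure D2:**
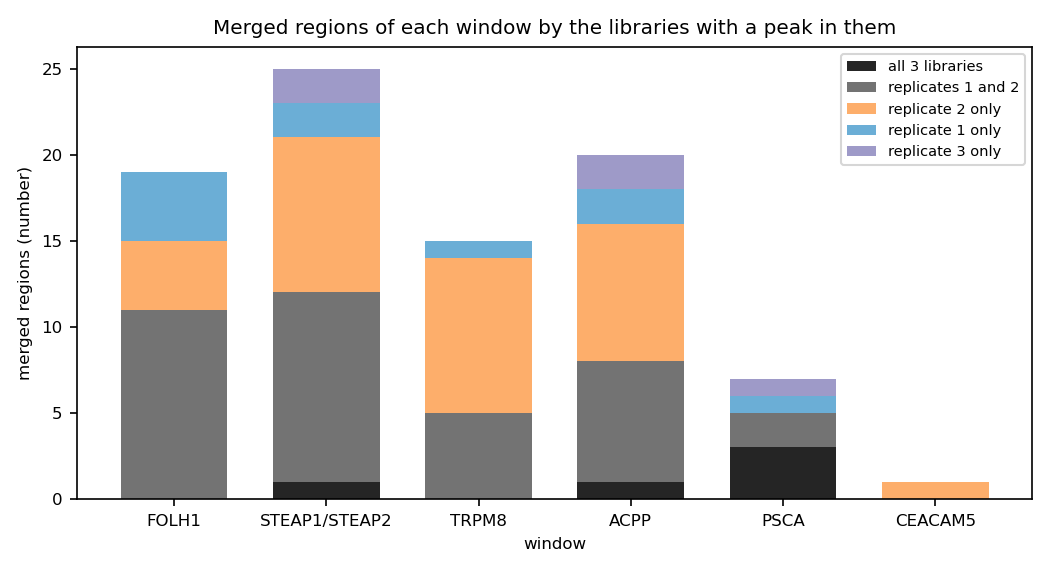
Number of merged regions in each window by the libraries that had a peak in them. FOLH1 and the STEAP window have 11 and 12 replicated sites, PSCA has 3 of the 5 sites of all 3 libraries, and CEACAM5 has 1 region, of replicate 2 only.

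Fold enrichment was higher in replicate 2 than in replicate 1 at 39 of the 41 replicated sites (95.1%), and at 88.3% of such sites over the genome. The median ratio of replicate 2 to replicate 1 was 1.85 in the windows, with a range of 0.831 to 5.07, and 1.65 over the genome. It was lowest for FOLH1, at 1.41, and highest for the STEAP window, at 2.43, with 1.95 for TRPM8, 1.86 for ACPP and 1.90 for PSCA. The title of replicate 1 begins with the number 2898, and the titles of replicates 2 and 3 begin with 3047. The control of replicate 1 is not named and the depths are unknown, so the scale of the 2 libraries cannot be compared further. The order of the sites was alike: Spearman's rho between the fold enrichments was 0.72 over the 41 sites and 0.71 over the genome, across sites that share the same libraries. The summits of the highest peaks were a median of 94 bp apart, against 80 bp over the genome. Of the 41 pairs, 23 were within 100 bp (56.1%), near the 57.9% over the genome. FOLH1 had 9 of its 11 pairs within that distance and PSCA 2 of 5.

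**Figure D3:**
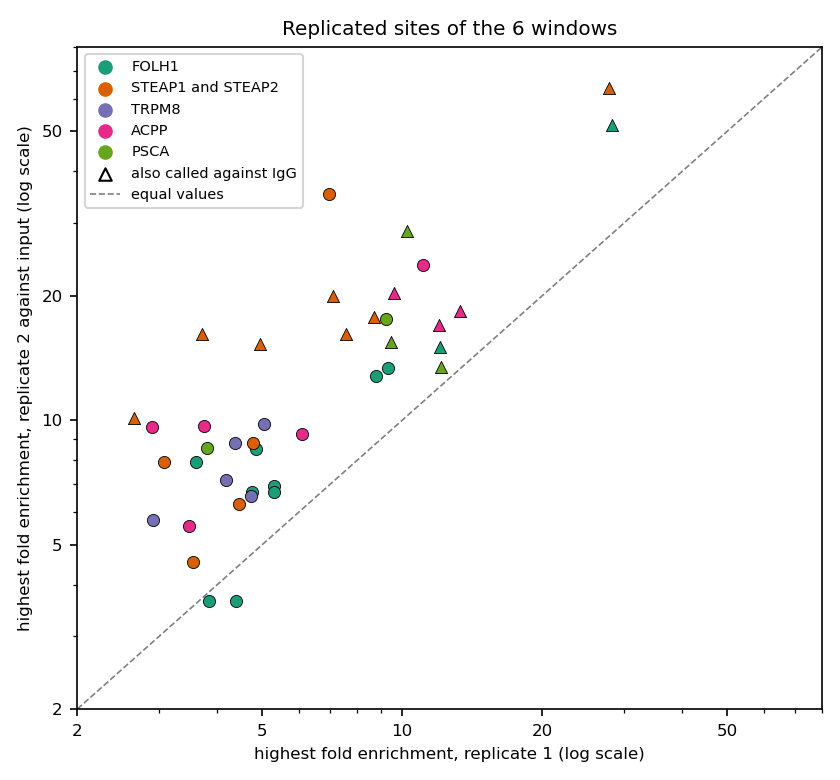
The authors' fold enrichment in replicate 1 and replicate 2 (both axes logarithmic) at the 41 replicated sites, coloured by window; triangles were also called against IgG. The strongest FOLH1 and STEAP sites lie apart at the top right, and 39 of the 41 points are above the line of equal values.

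The list of replicate 2 against IgG is the background comparison available for these sites. Of the 41 replicated sites, 15 were also called against IgG (36.6%, 22.1 to 53.1), against 23.2% of all replicated sites, a share inside that interval. They were 7 of 12 in the STEAP window, 3 of 5 in PSCA, 3 of 8 in ACPP, 2 of 11 in FOLH1 and 0 of 5 in TRPM8. All 18 IgG member peaks shared sequence with peaks that replicate 2 also had against input, as did 99.99% of the whole list against IgG. Their fold enrichment ran from 2.33 to 8.24, with a median of 3.28, and 5 reached a q of 0.05 or less (27.8%, against 21.5% of the whole list). Those 5 lay in 4 of the 41 replicated sites, and 5.55% of all replicated sites had such a peak. At 6 of the 15 sites the IgG peak had a −log10 q of 0, with at most 2.75-fold. The replicate 3 list against IgG held 1 peak in the whole genome and 0 in the windows, so no site had such a call in more than 1 library.

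Replicated sites were denser in 5 of the 6 windows than in most of the genome. FOLH1 had 6.88 per 100 kb, the STEAP window 6.67, ACPP 5.33, PSCA 5.0, TRPM8 2.50 and CEACAM5 0, with 4.56 over all windows and 0.902 over the genome. In 29967 tiles of 100 kb the quartiles were 0, 0 and 1, and 63.1% had none. A density per 100 kb at least that of the FOLH1 or STEAP window was found in 1.83% of tiles. For ACPP the share was 2.86%, for PSCA 4.55% and for TRPM8 12.6%. The windows are 100 to 200 kb long, so most of these densities are averages over more length than a tile. In bins of 10 kb, 26 of the 90 in the windows held a replicated site (28.9%), against 7.46% of all bins. The windows were drawn with earlier results of these data known, so the density is a description and no test was made of it.

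**Figure D4:**
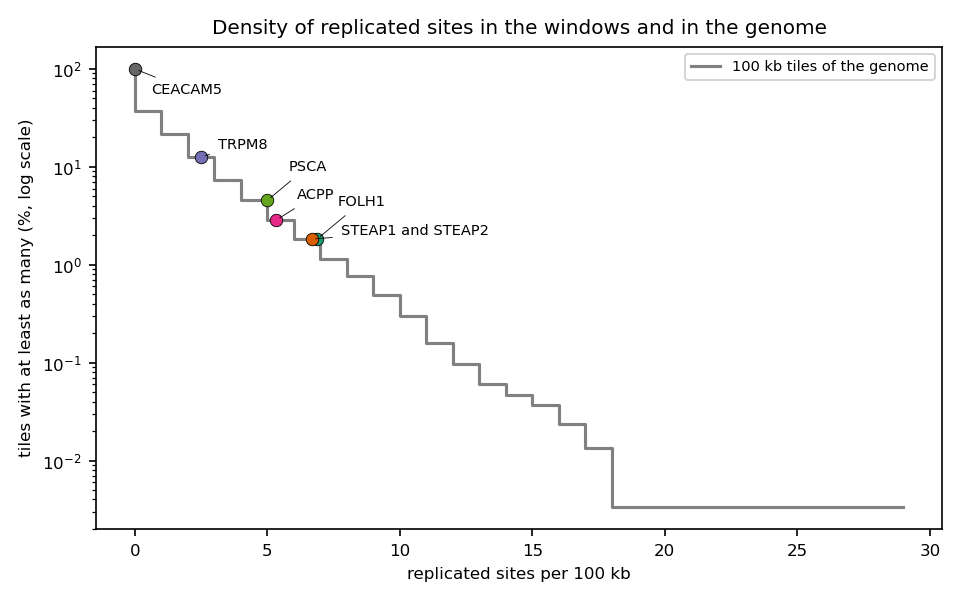
Share of 100 kb tiles of the genome (vertical axis) with at least the number of replicated sites on the horizontal axis, with the 6 windows as points at their sites per 100 kb. FOLH1 and the STEAP window lie where 1.83% of tiles have at least their density per 100 kb, and CEACAM5 lies at 0 sites.

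Stitching sites no more than 10 kb apart gave 8 groups of at least 2 sites in the windows, and the genome had 6073. The FOLH1 group of 10 sites and the STEAP group of 8 are the members among the 448 groups of the genome with at least 5 sites, at rank 19 and 41 by number of sites, ties included. The median group had 2 sites and the highest count was 30. The FOLH1 sites are packed more tightly, with a median gap of 390 bp between neighbours against 6194 bp in the STEAP window. Sites covered 16.1% of the STEAP window, 11.6% of PSCA, 8.78% of ACPP, 8.44% of FOLH1 and 1.60% of TRPM8, against 1.10% of the genome.

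Coordinates of genes were not available on hg19 here, so peaks were not placed in promoters, exons or introns, nor assigned to a gene. In the RefSeq order on GRCh38.p14, the protein-coding neighbours of FOLH1 are TRIM64C and OR4C13, and those of TRPM8 are MSL3B and SPP2. STEAP1 lies between TEX47 and STEAP2, and STEAP2 between STEAP1 and CFAP69. ACPP lies between CPNE4 and DNAJC13, PSCA between JRK and LY6K, and CEACAM5 between CEACAM7 and CEACAM6. Peaks of a window may lie nearer to such a neighbour than to the antigen gene.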

How the data were processed

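The 7 ChIP-seq libraries and their groups are as the labels give them. The tools named, per the submitters' processing notes, are MACS2, Bowtie2, BWA and CASAVA 1.4, and the builds are GRCh37 and hg19. What each tool did, the threshold for a peak, the filter and any pooling: not given in the sources used here. The authors deposited 6 peak lists. For every peak they hold the fold enrichment of its summit (a ratio over local control background), −log10 p and −log10 q, all deposited as called. The lists hold no read counts, so depth is unknown and no interval for single peaks was possible.

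The members and lists were chosen with earlier results of these data known. Peaks sharing at least 1 bp with a window or with each other were counted with pandas 2.3.3 and NumPy 2.4.6 in Python 3.11.15, and intervals with SciPy 1.17.1. For 30 list pairs, bedtools 2.31.1 gave equal overlap counts. Figures were drawn with matplotlib 3.10.9. Peaks of the 3 replicate lists were merged where they overlapped; a region with peaks of at least 2 libraries is a replicated site, and its value in a library is that of its highest peak. Sites up to 10 kb apart were stitched. Coordinates are hg19, counted from 1. Simulated lists served to test the code. In each window, up to 5 sites were named: those in most libraries, then by replicate 2 fold, then by replicate 1 fold; other regions singled out were chosen after their values were seen. Intervals are exact 95% binomial (Clopper-Pearson). Promoter sequences, gene names and gene order are from RefSeq tables of GRCh38.p14. Planned counts near related genes and other antigens need gene positions on hg19 and were not run. Alternatives changed the overlap rule, the q threshold, the window edges, the tile and stitching sizes and the lists used.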

Additional observations from a re-analysis of the deposited data

Results flagged for a closer look

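The list against input that no label ties to a library was used in no count of replicated sites, and it held 59 peaks in the 6 windows, which is a signal in data outside the main comparison. They were 22 in the STEAP window, 14 in ACPP, 11 in FOLH1, 6 each in TRPM8 and PSCA, and 0 in CEACAM5. Of the 59, 58 shared sequence with a peak of replicate 1 or 2 (98.3%, exact 95% interval 90.9 to 99.96), against 92.6% of the whole list. Whether this list comes from 1 of the 3 HOXB13-K13ac libraries or from pooled reads is unknown.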

How the results depend on the processing

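Of 68 alternatives over all counts and windows, 42 stayed within the margin set for them (1.5 times for counts). For the results over all windows it was 14 of 26. With equal numbers of the strongest peaks per list, the windows held 28 of 69 peaks of replicate 1 and 29 of 77 of replicate 2. That cut kept 18232 of 41303 peaks of the whole replicate 1 list and of 45216 of replicate 2. At a −log10 q of at least 5, replicate 2 kept 47 of 77 peaks, against 67.2% of its whole list. Replicate 3 kept 1 of 13, against 6.28%, and 1 site was present in all 3 libraries. Windows widened by 50 kb on both sides gave replicate 3 20 peaks. The 41 replicated sites became 23 when peaks had to share 0.5 of both widths and 27 when summits had to lie within 100 bp; the cause was not tested. Leaving out each library in turn gave 5 to 41 replicated sites: 5 when replicate 1 was left out, 6 for replicate 2 and 41 for replicate 3. The replicated sites thus rest on replicates 1 and 2 together. With the list without a library in place of replicate 3, 35 sites were present in all 3. With IgG peaks limited to a q of 0.05 or less, 4 sites were called against IgG. CEACAM5 had 0 replicated sites under each alternative run. With a single peak in the lists used, no other outcome was possible, and these alternatives are counted among the 42. FOLH1 and TRPM8 had 0 replicate 3 peaks, so leaving out replicate 3 could not change their counts. Those alternatives are among the 42 too. The density in the windows was 4.997 times that of the genome, 5.03 with tiles of 200 kb and 5.30 with peaks below a −log10 q of 5 left out. No paired analysis was possible because there is 1 condition and no result comes from a test. Depth is unknown, so an absent replicate 3 peak, as at FOLH1 and TRPM8, does not show absent binding.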

Other observations

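Regions that only 1 library had reached at most 5.31-fold in replicate 1, 6.81-fold in replicate 2 and 5.13-fold in replicate 3. Above their own list's median (4.67, 6.50 and 4.40) were 3 of 10, 1 of 31 and 2 of 5. The matching shares over the genome are not given here, so these counts describe the windows only. In TRPM8 the 9 regions of replicate 2 alone lay between 3.61-fold and 5.21-fold. In the STEAP window the highest such region, chr7:89859890-89860344, reached 6.81-fold in replicate 2 and 4.57-fold in the list without a library. FOLH1 had 4 regions of replicate 2 alone, and none of them had a peak in that list. The highest replicate 3 peak at PSCA, chr8:143710565-143710817 with 5.13-fold, was in no other library.

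Some peaks of 1 list share the same pair of values to every decimal given. In FOLH1, 4 replicate 2 peaks had 3.65-fold with a −log10 q of 2.18, a pair found at 820 peaks of that list. In TRPM8, 2 replicate 2 peaks shared 4.26-fold and 3.12, found at 1161 peaks. Such ties mean that the order of low peaks within a list is not resolved.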
